A study of Mus musculus with 20 samples.

Results

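The small nucleolar RNAs and the non-coding genes known as their hosts were followed in mouse hypothalamic cell lines exposed to serotonin. Members were all genes with a single symbol in the array annotation that starts with Snord, Snora or Snhg, or that equals Gas5, and they numbered 63 of 18820 genes. Of these, 56 were small RNAs (30 Snord and 26 Snora) and 7 were hosts: Gas5, Snhg5, Snhg11, Snhg15, Snhg16, Snhg17 and Snhg20. The 10 members with several probe sets are shown by the probe set that had the greatest average level across the 20 arrays. Levels are therefore a description, and no level of 1 member is set against that of another.

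Expression was measured as log2 values on 20 Affymetrix gene arrays in 5 groups of 4, in work on serotonin and the feeding peptide NPY. Mouse HypoE-46 cells (here E46), which the study calls serotonin sensitive, were measured as controls, with serotonin at 1 ug/ml and with serotonin at 100 ug/ml. HypoA-2/12 cells (here A2/12), which it calls unresponsive, were measured with serotonin at 100 ug/ml and as controls. Both are immortalised lines kept in DMEM with fetal calf serum, all arrays carry a label of 24 h exposure, and the protocol places 4 h in serum-free medium ahead of serotonin. Each line stands for its type by itself, so a difference between the lines cannot be told apart from other differences between 2 cultures. No label says that replicates came from separate cultures, so p-values measure the spread between these samples, which may be technical. For E46 the title and the description of each serotonin array give the doses the other way round. Groups are named here by the title, as serotonin 1 and serotonin 100, and every E46 dose comparison carries that doubt.

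Small nucleolar RNAs guide the chemical modification of other RNAs in the nucleolus. C/D box RNAs (Snord) direct the methylation of ribose and H/ACA box RNAs (Snora) the conversion of uridine to pseudouridine, mostly in ribosomal RNA, and a few take part in cutting the ribosomal RNA precursor. In vertebrates nearly all lie in introns and are released as the host transcript is spliced. Many hosts encode ribosomal proteins or translation factors, while others, such as Gas5, make a spliced RNA with no conserved protein, which is broken down by nonsense-mediated decay as it is translated. Numerous hosts start with a run of pyrimidines after a C, the 5′ terminal oligopyrimidine tract, through which growth signals set translation.

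In the RefSeq annotation (mouse, GRCm38.p6) 55 of the 56 small RNAs lay inside another gene, and Snord118 (U8) had a gene of its own. Ribosomal protein genes held 20, translation factor genes or Rack1 held 6, non-coding genes held 13 and other protein-coding genes held 15. Snord8 lay inside 2 genes. The annotation used carries no strand, and a probe set inside an intron cannot tell the mature small RNA from unspliced host RNA. In a bulk sample, fewer cells of a type and less RNA per cell cannot be told apart either.

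All 9 annotated starts of the 7 hosts are shown because 6 of the 7 hosts rose with serotonin 100 in both lines. Each line gives 30 bases before and 30 bases from an annotated start, 5′ to 3′ on the strand of the gene, in lower case, with a C followed by at least 4 pyrimidines in capitals where such a run began within 10 bases of the start.
Gas5, first start, chr1:161034571-161034630, plus strand: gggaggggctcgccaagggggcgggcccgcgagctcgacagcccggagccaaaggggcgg
Gas5, second start, chr1:161035136-161035195, plus strand: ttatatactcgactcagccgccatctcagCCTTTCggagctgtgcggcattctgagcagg
Snhg5, chr9:88522868-88522927, minus strand: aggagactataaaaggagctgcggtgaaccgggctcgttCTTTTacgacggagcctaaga
Snhg16, chr11:116671630-116671689, plus strand: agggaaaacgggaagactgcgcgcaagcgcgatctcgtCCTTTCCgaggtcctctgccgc
Snhg15, chr11:6528731-6528790, minus strand: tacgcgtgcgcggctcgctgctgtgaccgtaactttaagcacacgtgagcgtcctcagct
Snhg20, chr11:117076753-117076812, plus strand: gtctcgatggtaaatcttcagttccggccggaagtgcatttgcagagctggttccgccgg
Snhg17, chr2:158361493-158361552, minus strand: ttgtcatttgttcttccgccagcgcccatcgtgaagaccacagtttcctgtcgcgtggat
Snhg17, other start, chr2:158361480-158361539, minus strand: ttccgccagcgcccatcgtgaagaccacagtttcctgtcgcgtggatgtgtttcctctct
Snhg11, chr2:158375683-158375742, plus strand: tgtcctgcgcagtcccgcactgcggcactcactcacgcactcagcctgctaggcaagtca

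A run of this kind stood at 3 of the 9 annotated starts of the 7 hosts, namely the second start of Gas5 and those of Snhg5 and Snhg16, against 30.7% of 32851 RefSeq promoters. CACGTG, the core of the E-box that Myc and related factors bind, was found in 1 of the 9 windows of 250 bases before to 50 after the start (Snhg15, at bases 12 to 17 after the start) and in 7.15% of all promoters. TGATGNAA, a form of the amino acid response element, was searched on both strands and was in none of the 9 windows and in 3.97% of all promoters. CCAAT was in 1 window (Snhg5) and in 37.4% of all promoters, and TATAAA was in 1 (Snhg5, 23 to 18 bases before the start) and in 13.6% of all. These matches describe letters only.

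Signal was judged against 1157 odorant and pheromone receptor genes, whose 95th percentile lay between 4.35 and 4.66 on the log2 scale in the 5 groups. Above it were 59 members in E46 controls, 59 with serotonin 1 and 61 with serotonin 100, then 62 in A2/12 cells with serotonin 100 and 56 in A2/12 controls. Snora36b was below it in all groups, and Snhg11, Snord58b and Snord38a were above it in 2 groups each, so changes of these low members are compressed. Of 9 neuronal markers measured, 5 were above background in every group, while Rbfox3, Snap25, Nefl and Dcx were below it in every group. Among 8 astrocyte and progenitor markers, 6 were above background in each E46 group and 4 in each A2/12 group. Among 5 microglial markers, 1 was above it in every group except A2/12 controls, where 3 were. Gfap and Aqp4 (astrocyte), Mog and Mag (oligodendrocyte), Aif1 and Itgam (microglia) and Pecam1 and Kdr (endothelium) were below it in all 5 groups. The third endothelial marker, Cdh5, was above it only in A2/12 cells with serotonin 100, where its log2 change against controls was 1.57 ± 0.12 (SE). The summed level of the 3 was 13.70 to 14.24 in A2/12 cells with serotonin 100 against 11.81 to 12.33 in A2/12 controls, and 2 of the 3 were called higher. The summed log2 level of 5 microglial markers lay between 19.76 and 21.15 in 4 groups and reached 25.97 on 1 array of A2/12 controls. The summed level of the neuronal markers was 45.91 to 47.30 in E46 cells with serotonin 100 against 48.20 to 49.02 in E46 controls, and 47.55 to 48.23 in A2/12 cells with serotonin 100 against 52.75 to 53.90 in A2/12 controls. That of 8 astrocyte and progenitor markers was 55.75 to 56.60 in E46 cells with serotonin 100 against 62.33 to 63.05 in E46 controls, and 46.38 to 47.63 in A2/12 cells with serotonin 100 against 48.94 to 49.57 in A2/12 controls. Of these 8, 5 were lower in E46 cells, and 3 were lower and 1 higher in A2/12 cells. The part of these markers in the results was not tested. The upper quartile of an array was under 8.2 on 4 arrays: E46 control replicate 1 (8.09), E46 serotonin 1 replicates 1 (8.10) and 3 (8.11) and A2/12 control replicate 2 (8.16), called low-quartile arrays here.

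With serotonin 100 most hosts and many small RNAs rose in both lines, and no small RNA fell. In E46 cells, 6 of the 7 hosts and 29 of the 56 small RNAs rose against controls and 1 host, Snhg11, fell, while 39.6% of all genes were called, 20.3% higher and 19.3% lower. In A2/12 cells, 6 hosts and 35 small RNAs rose and none fell, against 45.9% of all genes called, 24.8% higher and 21.1% lower. The median log2 change in E46 cells was 0.52 for small RNAs and 0.98 for hosts, beside -0.00 for all genes. A2/12 cells gave 0.64 for small RNAs and 0.93 for hosts, beside 0.00 for all genes. Calls are limma adjusted p-values under 0.05, adjusted over all 18820 genes. Without the 4 low-quartile arrays, 29 small RNAs and 6 hosts were called in E46 cells, and 32 and 6 in A2/12 cells. Without the 2 control arrays that stood apart (E46 replicate 3 and A2/12 replicate 4), 27 small RNAs and 7 hosts were called in E46 cells and 30 and 6 in A2/12 cells. Scan names carry a position number of 5, 7 or 9, with 1 or 2 arrays of each group at each. Within positions 5, 7 and 9, the calls were 24, 20 and 1 small RNAs in E46 cells, with medians of 0.73, 0.58 and 0.38, and 33, 34 and 6 in A2/12 cells, with medians of 0.81, 0.78 and 0.36. A group with 1 array at a position borrows the spread of the other groups. At position 9 every group but serotonin 1 had 1 array, so the spread came from serotonin 1 arrays alone. Far fewer of all genes were called there than in the main fit, so its low counts are no result about the members. The other refits in this paragraph stand without their share of all genes, so their counts are not read as particular to the members.

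Snhg16, a host of C/D box RNAs, had the largest change of all members. In E46 cells it read 6.49, 6.86, 7.11 and 6.97 in controls, 6.82, 6.84, 6.66 and 6.997 with serotonin 1, and 8.69, 8.999, 9.05 and 9.24 with serotonin 100. A2/12 cells read 9.48, 9.53, 9.57 and 9.53 with serotonin 100 against 6.55, 6.37, 6.69 and 6.55 in controls. All 8 arrays with serotonin 100 were above every other array. The log2 change was 2.14 ± 0.12 (SE), or 4.40-fold, in E46 cells (adjusted p = 1.7e-11) and 2.99 ± 0.12, or 7.94-fold, in A2/12 cells (adjusted p = 4.2e-14). Against controls, serotonin 1 gave -0.03 ± 0.12 (adjusted p = 0.92).

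Snhg5, the host of the U50 RNAs, was likewise highest with serotonin 100 in both lines. Its levels in E46 cells were 8.06, 8.30, 8.52 and 8.34 in controls, 8.35, 8.57, 8.50 and 8.48 with serotonin 1, and 9.76, 9.98, 10.03 and 10.00 with serotonin 100. A2/12 cells gave 9.87, 10.03, 9.96 and 9.95 with serotonin 100 against 8.30, 8.38, 8.38 and 8.40 in controls. The serotonin 100 arrays of both lines were again above all others. Its log2 change was 1.64 ± 0.09 (SE) in E46 cells (3.12-fold, adjusted p = 5.9e-12) and 1.59 ± 0.09 in A2/12 cells (3.01-fold, adjusted p = 2.2e-12). With serotonin 1 it was 0.17 ± 0.09 (adjusted p = 0.33).

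Gas5 is a host of C/D box RNAs that accumulates when growth stops. On the probe set with the highest mean, E46 cells read 9.31, 9.76, 9.78 and 9.65 in controls, 10.24, 9.67, 10.47 and 10.07 with serotonin 1 and 10.35, 10.32, 10.22 and 10.19 with serotonin 100. A2/12 cells read 9.63, 9.59, 9.88 and 9.60 with serotonin 100 against 8.90, 8.86, 8.91 and 8.83 in controls. Serotonin 100 and control arrays did not overlap in either line, and serotonin 1 arrays overlapped both other E46 groups. The log2 change with serotonin 100 was 0.65 ± 0.13 (SE) in E46 cells (adjusted p = 0.00030) and 0.80 ± 0.13 in A2/12 cells (adjusted p = 2.1e-05).

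The 4 probe sets of Gas5 gave changes of different size. Probe set 10351026 changed by 1.31 in E46 cells and 1.89 in A2/12 cells, 10351035 by 1.35 and 1.35, 10351039 by 1.804 and 1.71, and the chosen 10351037 by 0.65 and 0.80. All 8 changes passed the test over all probe sets. With serotonin 1 the changes were 0.13, 0.13 and 0.48 for the first 3 and 0.49 for the chosen one, and none passed. Thus the rule picked the probe set with the smallest response to serotonin 100, and the files do not say which part of the Gas5 transcript or of its introns each probe set covers. On 10351026 the response of E46 cells was smaller than that of A2/12 cells by a log2 difference of -0.58 ± 0.13 (adjusted p = 0.0034 over all probe sets); for the other 3 this difference did not pass.

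**Figure D1:**
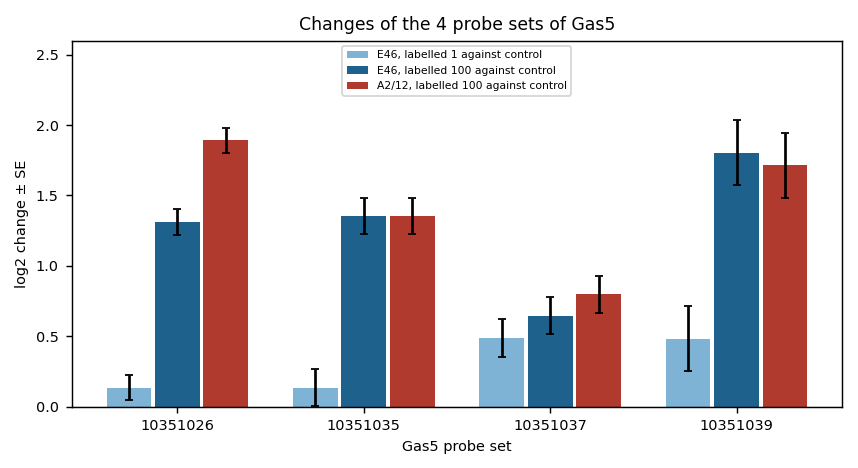
Log2 change with SE (y axis) of each of the 4 Gas5 probe sets (x axis), for E46 cells with serotonin 1 and serotonin 100 against E46 controls and for A2/12 cells with serotonin 100 against A2/12 controls. The chosen probe set 10351037 has the lowest bars with serotonin 100 (0.65 and 0.80), and the others lie between 1.31 and 1.89.

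Snhg15, Snhg17 and Snhg20, also non-coding hosts, rose with serotonin 100 and varied more between arrays. Snhg20 read 6.77, 7.06, 7.07 and 7.13 in E46 controls, 7.26, 7.14, 8.28 and 7.76 with serotonin 1 and 8.00, 7.95, 8.11 and 7.93 with serotonin 100. For A2/12 cells the Snhg20 levels were 7.81, 7.65, 8.196 and 7.91 with serotonin 100 against 7.23, 6.47, 6.95 and 6.57 in controls. Its log2 change was 0.99 ± 0.20 (SE, adjusted p = 0.00029) in E46 cells and 1.09 ± 0.20 (adjusted p = 7.8e-05) in A2/12 cells. Snhg15 changed by 0.98 ± 0.24 (adjusted p = 0.0023) and 0.91 ± 0.24 (adjusted p = 0.0033), and Snhg17 by 0.68 ± 0.21 (adjusted p = 0.014) and 0.93 ± 0.21 (adjusted p = 0.00097). A second probe set of Snhg17, 10489237, gave 0.74 ± 0.27 in E46 cells and 1.86 ± 0.27 in A2/12 cells, and it was lower in E46 than in A2/12 controls by -0.73 ± 0.27 (adjusted p = 0.049 over all probe sets). On 10489237 the difference of the responses, E46 minus A2/12, was -1.12 ± 0.38 and did not pass in limma's test (adjusted p = 0.058 over all probe sets). The third, 10489235, gave 0.798 and 0.94. Serotonin 1 replicate 3, a low-quartile array, was the highest of all E46 arrays for each of these 3 hosts.

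Snhg11, a non-coding host known from neurons, was near background throughout. It read 4.32, 4.07, 4.35 and 4.31 in E46 cells with serotonin 100 against 4.94, 4.57, 4.48 and 4.42 in E46 controls, a log2 change of -0.34 ± 0.13 (SE, adjusted p = 0.048). The call was lost under 21 of 37 alternatives, with adjusted p between 0.011 and 0.56 over them, and all serotonin 100 arrays lay under the background level of 4.45. In A2/12 cells the log2 change was 0.02 ± 0.13 (adjusted p = 0.92).

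**Figure D2:**
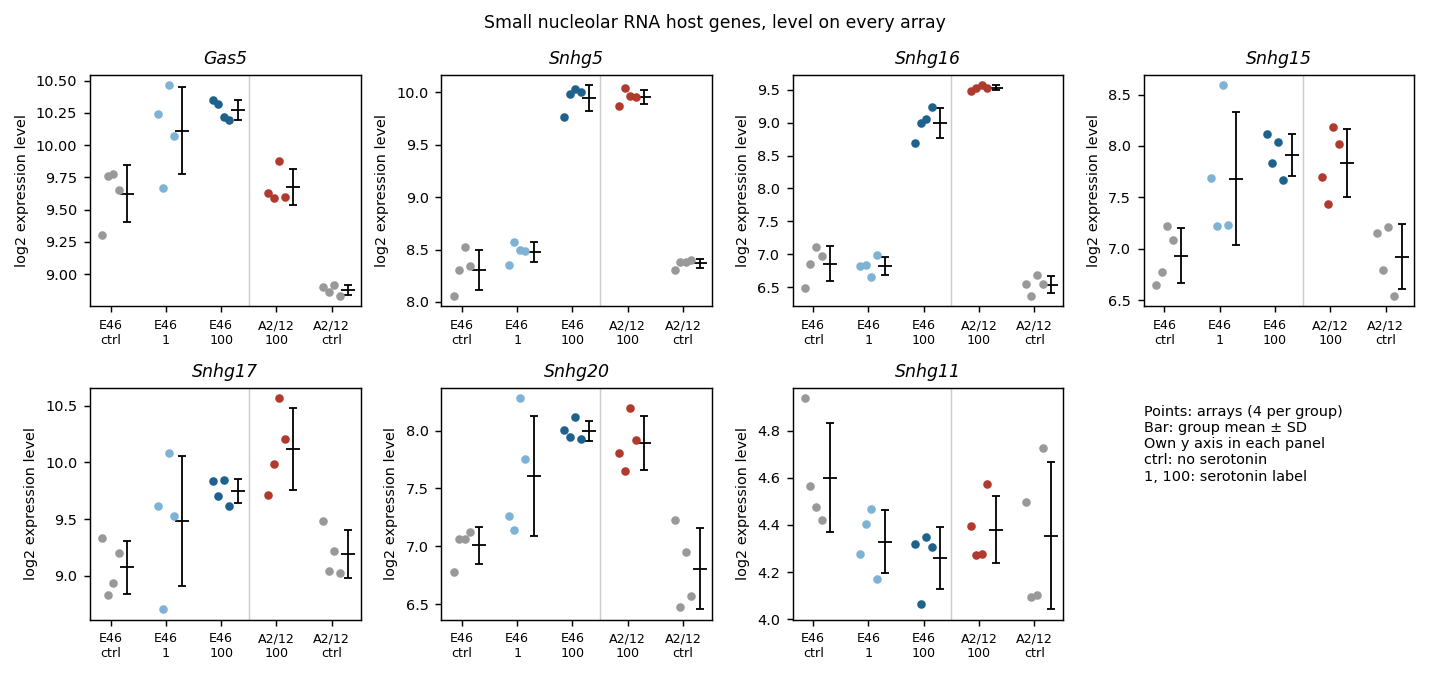
Log2 level (y axis, own scale in each panel) of the 7 host genes on every array by group, with the group mean and SD; ctrl, 1 and 100 stand for no serotonin and for the serotonin dose in the title in ug/ml. For Snhg16 and Snhg5 all serotonin 100 arrays are above all others, whereas for Gas5, Snhg15, Snhg17 and Snhg20 the serotonin 1 arrays spread across the control and serotonin 100 levels.

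Among the C/D box RNAs, 17 of 30 rose in E46 cells with serotonin 100 and 21 of 30 in A2/12 cells. Snord95, in an intron of Rack1, the ribosome-bound receptor for activated C kinase, read 7.09, 7.76, 7.68 and 7.71 in E46 controls, 7.71, 7.84, 7.88 and 7.69 with serotonin 1 and 8.77, 8.91, 8.93 and 8.79 with serotonin 100. A2/12 cells read 8.91, 9.13, 9.12 and 9.09 with serotonin 100 against 7.67, 7.63, 7.83 and 7.76 in controls. All arrays with serotonin 100 were above all arrays without it and with serotonin 1. The log2 change was 1.29 ± 0.11 (SE, adjusted p = 6.6e-09) in E46 cells and 1.34 ± 0.11 (adjusted p = 2.0e-09) in A2/12 cells.

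Snord16a, from the ribosomal protein gene Rpl4, had levels of 8.25, 8.63, 8.65 and 8.61 in E46 controls, 8.38, 8.77, 8.67 and 8.80 with serotonin 1 and 9.47, 9.83, 9.66 and 9.78 with serotonin 100. The levels in A2/12 cells were 9.95, 9.89, 9.87 and 9.87 with serotonin 100 against 8.70, 8.77, 8.91 and 8.93 in controls. Snord42b, from Rpl23a, changed by 1.02 ± 0.09 (SE, adjusted p = 1.5e-08) in E46 cells and 1.11 ± 0.09 (adjusted p = 2.5e-09) in A2/12 cells, beside 1.15 ± 0.10 and 1.07 ± 0.10 for Snord16a. Snord55 changed by 1.01 ± 0.13 and 1.31 ± 0.13, and Snord38a by 0.89 ± 0.20 and 1.03 ± 0.20. For Snord16a, Snord42b and Snord55 the serotonin 100 arrays were all above the controls of their line.

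Snord58b, from Rpl17, changed by 1.33 ± 0.14 (SE) in E46 cells and 1.64 ± 0.14 in A2/12 cells, but it was above background only with serotonin 100 (means of 4.64 in E46 and 5.23 in A2/12 cells). Its control means of 3.31 in E46 and 3.58 in A2/12 cells lay under background. Snord37, from the elongation factor gene Eef2, changed by 1.08 ± 0.28 (adjusted p = 0.0039) and 1.49 ± 0.28 (adjusted p = 0.00016). It read 4.52, 5.53, 5.57 and 5.70 in E46 controls, 4.01, 5.49, 4.24 and 5.21 with serotonin 1 and 6.17, 6.35, 6.46 and 6.69 with serotonin 100. The 3 lowest of these 12 values were on the 3 low-quartile E46 arrays.

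Snord22 (U22), known in Xenopus to be needed for making 18S ribosomal RNA, was the member with the smallest SE (0.07). It read 7.09, 7.24, 7.41 and 7.25 in E46 controls, 7.72, 7.68, 7.98 and 7.79 with serotonin 1, and 8.17, 8.26, 8.22 and 8.13 with serotonin 100. A2/12 cells read 8.00, 7.88, 7.96 and 7.93 with serotonin 100 against 6.87, 6.89, 6.78 and 6.88 in controls. The 3 E46 groups did not overlap. Its log2 change with serotonin 100 was 0.95 ± 0.07 (SE, adjusted p = 1.4e-09) in E46 cells and 1.09 ± 0.07 (adjusted p = 7.6e-11) in A2/12 cells. Its host Snhg1 was not measured under a single symbol.

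Snord47, a C/D box RNA in an intron of Gas5, read 7.16, 8.15, 7.83 and 7.57 in E46 controls, 8.89, 7.60, 9.28 and 8.63 with serotonin 1 and 8.27, 8.202, 8.37 and 7.97 with serotonin 100. A2/12 cells read 7.90, 7.67, 7.78 and 7.86 with serotonin 100 against 7.13, 7.08, 7.16 and 7.39 in controls. Groups overlapped in E46 cells and did not in A2/12 cells. Its change of 0.52 ± 0.24 (SE) did not pass in E46 cells (adjusted p = 0.097), and that of 0.61 ± 0.24 in A2/12 cells did (adjusted p = 0.045), a call lost under 21 of 37 alternatives (adjusted p from 0.00015 to 0.38). The host Gas5 is described above with 0.65 and 0.80.

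Snord118 (U8), needed in vertebrates for processing the precursor of 5.8S and 28S ribosomal RNA and transcribed from its own promoter, did not pass the test with serotonin 100 in either line. It read 7.31, 7.33, 7.13 and 6.95 in E46 controls, 8.04, 7.46, 8.57 and 8.07 with serotonin 1, and 7.16, 7.22, 7.10 and 6.68 with serotonin 100. Levels in A2/12 cells were 7.17, 6.90, 7.84 and 6.999 with serotonin 100 against 7.82, 7.71, 7.50 and 7.41 in controls. The change with serotonin 100 was -0.14 ± 0.20 (SE, 95% interval -0.56 to 0.29) in E46 cells and -0.38 ± 0.20 (-0.80 to 0.04) in A2/12 cells, and neither passed. Without A2/12 serotonin 100 replicate 3, the highest of its group, the A2/12 change was -0.58 and passed (adjusted p = 0.015). Against serotonin 1, serotonin 100 was lower by -0.99 ± 0.20 (adjusted p = 0.00041). That call was lost under 2 of 37 alternatives, within position 5 (-0.36) and within position 9 (-0.83).

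Of the H/ACA box RNAs, 12 of 26 rose in E46 cells and 14 of 26 in A2/12 cells. Snora75, in an intron of Ncl, the gene of the nucleolar protein nucleolin, had the largest change of any small RNA. It read 5.92, 6.23, 6.52 and 6.17 in E46 controls, 5.97, 6.35, 6.49 and 6.82 with serotonin 1 and 7.63, 7.78, 7.55 and 7.76 with serotonin 100. The A2/12 levels were 7.73, 7.99, 7.36 and 7.63 with serotonin 100 against 5.85, 5.59, 6.04 and 6.31 in controls. Serotonin 100 arrays were all above the rest. The log2 change was 1.47 ± 0.17 (SE, 2.77-fold, adjusted p = 4.6e-07) in E46 cells and 1.73 ± 0.17 (3.32-fold, adjusted p = 2.7e-08) in A2/12 cells. Among H/ACA box RNAs Snora21, from Rpl23, came next with 1.31 ± 0.18 (adjusted p = 4.9e-06) and 1.43 ± 0.18 (adjusted p = 9.3e-07).

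By type of host, all 6 small RNAs in translation factor genes or Rack1 rose in both lines. Among those in ribosomal protein genes 12 of 20 rose in E46 cells and 15 of 20 in A2/12 cells. Those in non-coding genes gave 5 and 6 of 13, and those in other protein-coding genes 6 and 8 of 15. The share over all genes was 20.3% higher in E46 cells and 24.8% in A2/12 cells. The median change in the same order was 0.92, 0.57, 0.50 and 0.31 in E46 cells and 0.93, 0.71, 0.30 and 0.57 in A2/12 cells. The 3 RNAs in Snhg12 (Snora16a, Snora44 and Snora61), the 2 in Snhg3 (Snora73a and Snora73b) and 1 in Snhg4 (Snora74a) share their source, and of these 6 only Snora16a rose, in both lines.

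With serotonin 100, 28 small RNAs rose in both lines, 7 were called in A2/12 cells alone, 1 (Snora30) in E46 cells alone, and 20 in neither. Over all genes, 20.3% were higher in E46 cells and 24.8% in A2/12 cells. How many of all genes rose in both lines was not counted, so the overlap is not read as particular to small RNAs. A call in 1 line alone is not a difference between lines. The difference of the responses, E46 minus A2/12, was tested for all genes, with 22% called (11.1% higher and 10.9% lower), and it passed for 2 members. Snhg16 gave -0.85 ± 0.17 (SE, adjusted p = 0.00070), a smaller rise in E46 cells. The call of Snhg16 was lost within each position, where it gave -0.70 at position 5, -1.03 at position 7 and -0.955 at position 9. Snord14e (U14, known in yeast to be needed for 18S ribosomal RNA), from the chaperone gene Hspa8, gave -0.46 ± 0.11 (adjusted p = 0.0051). Its call was lost within each position, with -0.10 (adjusted p = 0.95) at position 5, -0.61 (adjusted p = 0.11) at position 7 and -0.74 (adjusted p = 0.87) at position 9. Snord14e read 8.84, 8.94, 9.05 and 8.88 in E46 cells with serotonin 100 against 8.47, 8.69, 8.75 and 8.58 in E46 controls, and 9.48, 9.56, 9.29 and 9.26 in A2/12 cells with serotonin 100 against 8.68, 8.59, 8.63 and 8.65 in A2/12 controls. Both lines thus rose without overlap, by 0.31 ± 0.08 in E46 cells and 0.76 ± 0.08 in A2/12 cells.

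**Figure D3:**
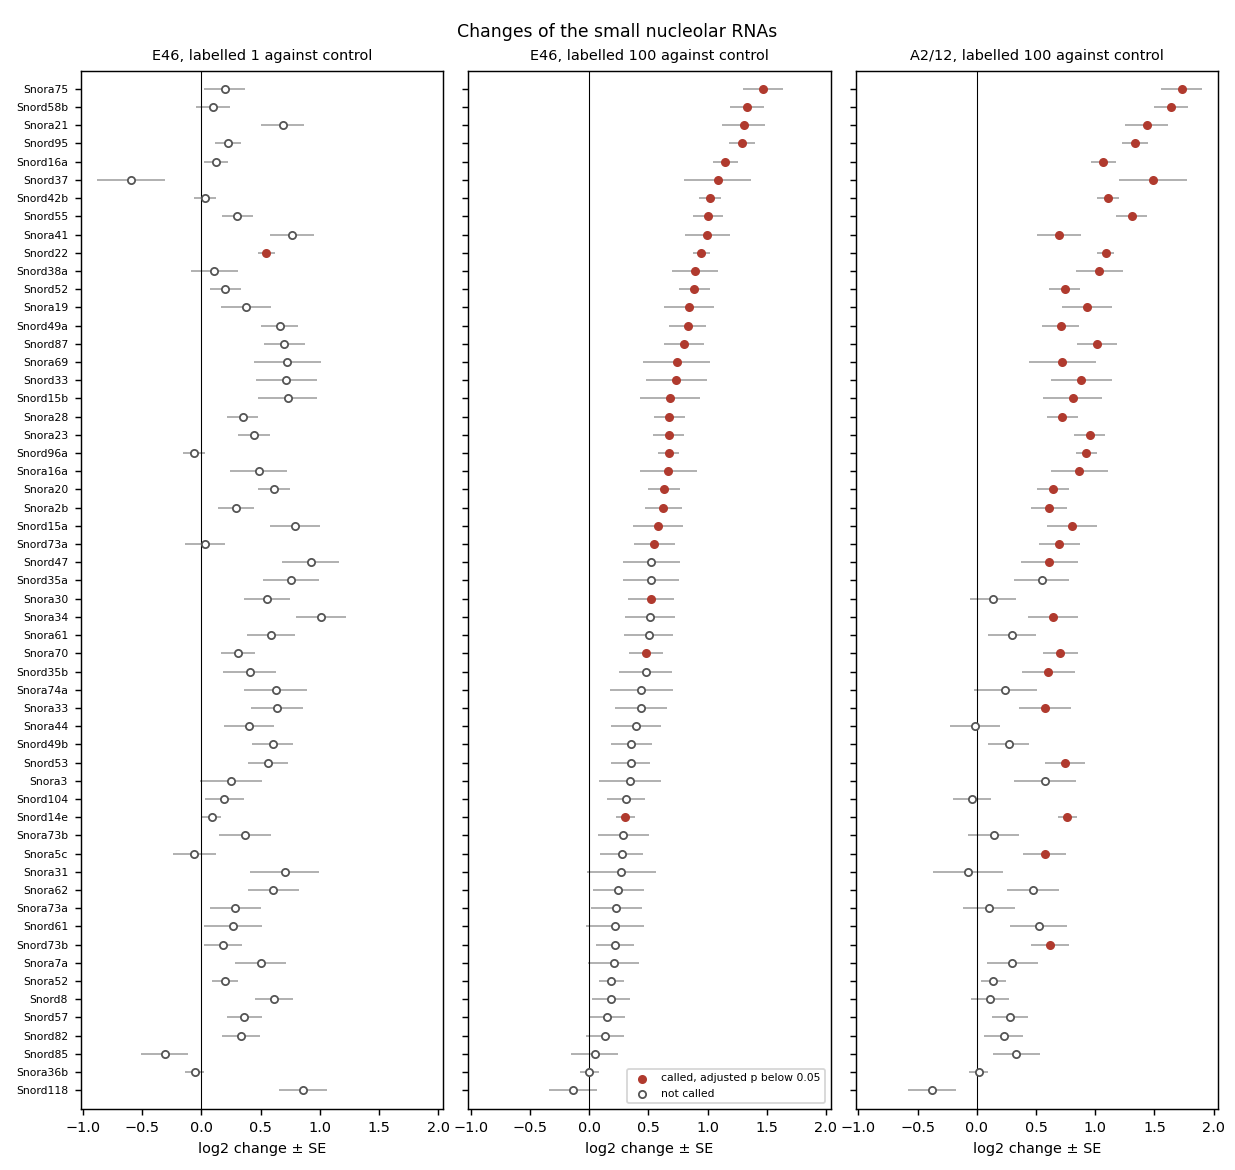
Log2 change with SE (x axis) of each of the 56 small RNAs (rows, sorted by the change in E46 cells labelled 100), for E46 cells labelled 1, E46 cells labelled 100 and A2/12 cells labelled 100 ug/ml serotonin, each against the controls of its line. Filled points passed an adjusted p of 0.05: 29 in E46 cells and 35 in A2/12 cells labelled 100, and only Snord22 in E46 cells labelled 1.

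With serotonin 1, 1 small RNA (Snord22) and no host passed in limma's test against E46 controls, where 0.0106% of all genes did (0.00531% higher and 0.00531% lower, 1 gene each). Snord22 changed by 0.55 ± 0.07 (SE, adjusted p = 0.0068), higher in 4 of 4 arrays than any control. Its call was lost with the line fitted alone (adjusted p = 0.28) and without the 4 low-quartile arrays (adjusted p = 0.28), and within each of positions 5, 7 and 9, so 5 of 37 alternatives lost it, with adjusted p from 0.0031 to 1 over them. Here and for other named members, such ranges leave out the exchange of the E46 doses, which sets other groups against each other. Unadjusted p was under 0.05 for 31 small RNAs and 3 hosts, beside 2993 of all 18820 genes. The median change was 0.39 for small RNAs and 0.41 for hosts, beside -0.04 for all genes. Changes above 0 were found for 51 of 56 small RNAs and for 7462 of all 18820 genes.

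Those shifts differed between the 4 arrays. The median difference of the 56 small RNAs from their mean over all 20 arrays was 0.14, -0.10, 0.54 and 0.21 on serotonin 1 replicates 1 to 4, between -0.37 and -0.11 on E46 controls and between 0.25 and 0.46 on serotonin 100 arrays. Replicate 3, the highest of all 20, and replicate 1 are low-quartile arrays. The median SD within a group over the small RNAs was 0.37 with serotonin 1, against 0.17 with serotonin 100 and 0.21 in controls. Without the 4 low-quartile arrays no member passed with serotonin 1, and the median of the small RNAs was 0.24 in place of 0.39. Snord47 changed by 0.27 in place of 0.92 and Gas5 by 0.14 in place of 0.49, whereas Snora33 changed by 0.62 in place of 0.64 and Snora41 by 0.90 in place of 0.76. Without serotonin 1 replicate 2, the lowest of the 4, 14 small RNAs and 1 host passed. The share of all genes that passed in that fit is not given here, so these counts are not read as particular to the members. The part of these arrays in the results at serotonin 1 was not tested further.

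**Figure D4:**
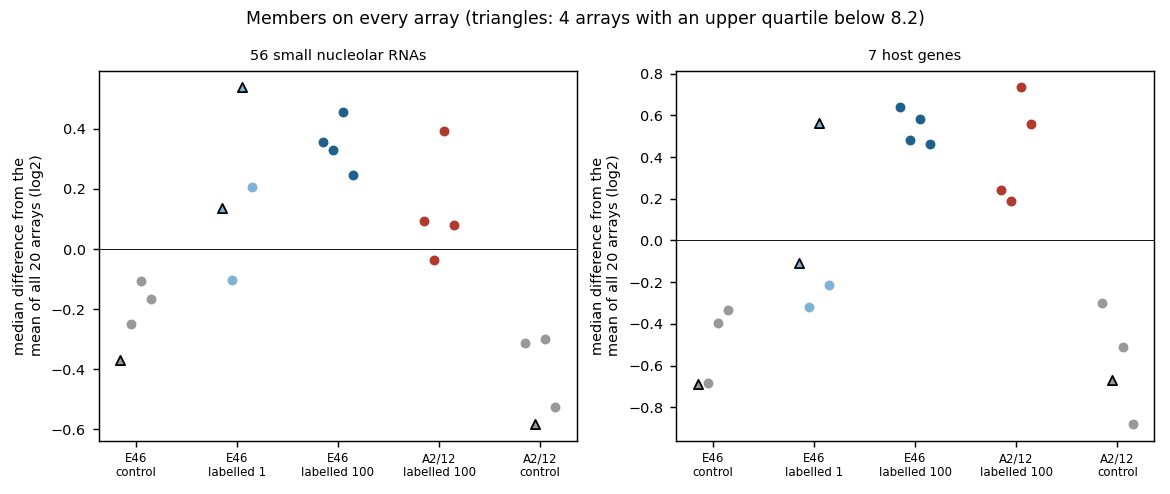
Median difference of the 56 small RNAs (left) and the 7 hosts (right) from their own mean over all 20 arrays (y axis, log2) on each array, by group (x axis); triangles mark the 4 arrays with an upper quartile under 8.2. Serotonin 1 replicate 3 reaches 0.54 for small RNAs, above every serotonin 100 array, while serotonin 1 replicate 2 is at -0.10.

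Set directly against serotonin 1, serotonin 100 was higher for 15 small RNAs and 2 hosts (Snhg16 and Snhg5) and lower for 2 small RNAs, where 41.4% of all genes were called, 23.6% higher and 17.8% lower. This comparison shares its serotonin 100 arrays with that against controls, so the values stand side by side and are no second test. Among small RNAs the 8 largest were Snord37 with 1.68 ± 0.28 (SE), Snora75 with 1.27 ± 0.17, Snord58b with 1.24 ± 0.14, Snord95 with 1.07 ± 0.11, Snord16a with 1.03 ± 0.10, Snord42b with 0.99 ± 0.09, Snord38a with 0.79 ± 0.20 and Snord96a with 0.73 ± 0.09. Apart from Snord37, which gave -0.60 ± 0.28, these 8 lay between -0.06 and 0.22 with serotonin 1 against controls. With serotonin 1 Snord58b (mean 3.41) and Snord38a (mean 4.40) were below the background level of 4.66, so the size and rank of their changes are uncertain. Snord37 was below that level on serotonin 1 replicates 1 and 3, both low-quartile arrays, so its first rank is uncertain too. The 2 that were lower were Snord118 and Snord8 (-0.43 ± 0.16, adjusted p = 0.041). Gas5 changed by 0.16 ± 0.13 on the chosen probe set (adjusted p = 0.35) and by 1.18, 1.22 and 1.32 on the others, which passed. Without the 4 low-quartile arrays, 6 hosts were called higher, where 6862 of all 18820 genes were called in either direction.

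Between the controls of the lines, 12 small RNAs and 2 hosts were higher in E46 than in A2/12 cells and 2 small RNAs were lower, with 39.1% of all genes called, 21.1% higher and 18.1% lower. Snord73b, from Rps3a1, read 9.58, 9.43, 9.93 and 9.80 in E46 controls against 8.09, 7.87, 8.60 and 8.34 in A2/12 controls, and Snord53, from Wdr43, 9.85, 10.06, 9.83 and 9.90 against 8.23, 8.46, 8.97 and 8.34. Neither overlapped, and the log2 differences were 1.46 ± 0.16 (SE, adjusted p = 1.9e-07) and 1.41 ± 0.17 (adjusted p = 5.3e-07). Their hosts did not follow: Rps3a1 differed by 0.14 ± 0.07 (adjusted p = 0.14) and Wdr43 was lower in E46 controls by -0.27 ± 0.08 (adjusted p = 0.016). Snora33, Snord35b, Snord33, Snord35a, Snora16a and Snora3 were higher by 0.80 to 1.06, and Snord16a was lower by -0.29 ± 0.10 (adjusted p = 0.029). Gas5 was higher by 0.75 ± 0.13 (adjusted p = 6.6e-05) and Snhg16 by 0.32 ± 0.12 (adjusted p = 0.040). The call of Snhg16 was lost under 11 of 36 alternatives, with adjusted p from 0.0016 to 0.59. Without the 2 control arrays that stood apart 9 small RNAs were called in place of 14, beside 6360 of all 18820 genes.

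For 34 small RNAs the gene that holds them was also measured, 29 genes in all. With serotonin 100 in E46 cells both partners rose in 16 pairs, the small RNA alone passed in 3 (Snora69 in Rpl39, Snora70 in Rpl10 and Snord14e in Hspa8), the host alone in 12, and neither in 3. In A2/12 cells the counts were 22, 3, 5 and 4. Of the 29 hosts, 23 rose in E46 cells and 22 in A2/12 cells, and none fell, beside 20.3% and 24.8% of all genes higher. The median change was 0.54 over the 34 small RNAs and 0.38 over the 29 hosts in E46 cells, and 0.70 and 0.45 in A2/12 cells. No gene of a pair passed in limma's test with serotonin 1, where the medians were 0.36 for small RNAs and 0.05 for hosts. Unadjusted p was under 0.05 there for 2 of the 29 hosts, beside 2993 of all 18820 genes.

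The pairs held changes of unlike size in both directions. Ncl holds 2 of the small RNAs and rose by 0.90 ± 0.08 (SE) in E46 cells (adjusted p = 1.2e-08) and 0.89 ± 0.08 in A2/12 cells (adjusted p = 8.9e-09). Its Snora75 changed by 1.47 and 1.73, and its Snord82, a C/D box RNA, by 0.13 ± 0.16 (adjusted p = 0.60) and 0.23 ± 0.16 (adjusted p = 0.30). Snord82 read 11.40, 11.20, 11.30 and 11.28 in E46 cells with serotonin 100 against 10.89, 11.11, 11.34 and 11.32 in E46 controls, and these overlapped. Nop56, a core protein of C/D box particles, rose by 0.80 ± 0.06 and 1.08 ± 0.06, and its Snord57 changed by 0.15 ± 0.15 and 0.28 ± 0.15, which did not pass. Tbrg4 and its Snora5c gave 1.04 and 0.28 in E46 cells and 1.41 and 0.57 in A2/12 cells.

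In Rpl17, Rpl23 and Eef2 the small RNA had the larger log2 change. Rpl17 rose by 0.22 ± 0.06 (SE) in both lines beside 1.33 and 1.64 for Snord58b, Rpl23 by 0.27 and 0.36 beside 1.31 and 1.43 for Snora21, and Eef2 by 0.25 and 0.22 beside 1.08 and 1.49 for Snord37. These hosts were near the top of the scale (Eef2 averaged 13.29 with serotonin 100 against 13.04 in E46 controls). Arrays compress differences there, so how much of the gap between partners is compression was not tested. The signed log2 change of the small RNA was above that of its host in 22 of 34 pairs in E46 cells and 23 of 34 in A2/12 cells. The A2/12 count includes Snora36b, which was below background in all groups, at 0.01 beside -0.12 for its host Rab3gap2.

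**Figure D5:**
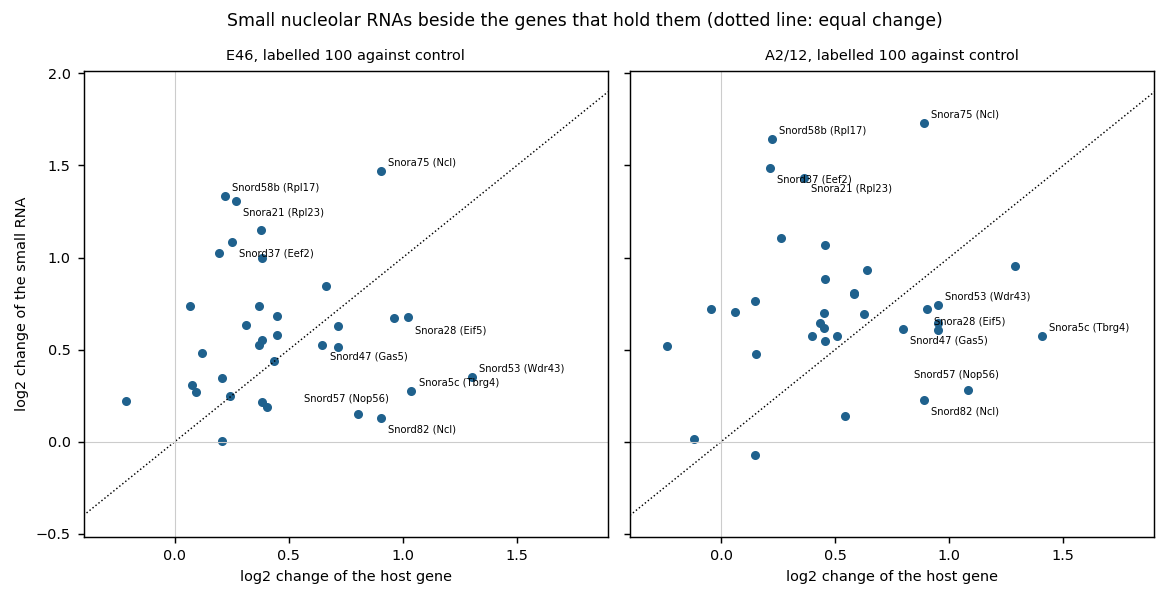
Log2 change of 34 small RNAs (y axis) against that of the gene that holds each (x axis) for serotonin 100 against controls in E46 cells (left) and A2/12 cells (right), with the line of equal change dotted. Snora75 and Snord82 share the host Ncl yet stand at 1.47 and 0.13 in E46 cells, and 22 of the 34 points in E46 cells lie above the line.

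Most transcripts of the proteins that package small nucleolar RNAs rose in both lines with serotonin 100. Of 7 measured core protein genes 6 rose in E46 cells and 7 in A2/12 cells, with medians of 0.90 and 1.08, beside 20.3% of all genes higher in E46 cells and 24.8% in A2/12 cells, which hold for the assembly factors too. Nop58 (C/D box) changed by 1.06 and 1.15, Nhp2 by 1.02 and 1.56, the pseudouridine synthase Dkc1 by 1.23 and 1.14, and Nop10 by 0.05 (adjusted p = 0.73) and 0.35. Of 11 assembly and trafficking factors 10 rose in E46 cells, with Pih1d1 at -0.08, and in A2/12 cells 9 rose and Pih1d1 was lower by -0.54 ± 0.10 (SE). Naf1, which acts in the assembly of H/ACA particles, changed by 1.27 ± 0.06 and 1.46 ± 0.06, and Rrp9, which binds the U3 RNA, by 1.56 ± 0.14 and 2.16 ± 0.14. With serotonin 1 none of the core or assembly genes passed in limma's test, and the medians were 0.05 and 0.00. Unadjusted p was under 0.05 for 1 core and 0 assembly genes, beside 2993 of all 18820 genes.

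Factors of nonsense-mediated decay, the route that degrades Gas5 and similar hosts, also moved mostly upward. Of 13 measured, 9 rose in E46 cells, and in A2/12 cells 10 rose and Smg6, the endonuclease of the pathway, was lower by -0.47 ± 0.08 (SE, adjusted p = 3.2e-05). Over all genes 20.3% were higher in E46 cells, and 24.8% were higher and 21.1% lower in A2/12 cells. The helicase Upf1 changed by 0.34 ± 0.08 in E46 cells and 0.51 ± 0.08 in A2/12 cells, and the release factor Etf1 by 0.88 ± 0.10 and 0.78 ± 0.10. The medians over the list were 0.41 and 0.51 with serotonin 100. With serotonin 1 the median was -0.11, and 0 passed in limma's test. Unadjusted p was under 0.05 for 3 of the 13, beside 2993 of all 18820 genes.

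The genes most like Gas5 over the 20 arrays by Pearson's r, on the chosen probe set, were Psma3 (0.955), Snord87 (0.946), Snrnp27 (0.941), Hikeshi (0.941) and Erh (0.940). These arrays share treatment, line and array quality, so the values are a description with no test. Snord87, inside Snhg6, rose by 0.80 in E46 cells and 1.01 in A2/12 cells with serotonin 100.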

How the data were processed

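The deposited values are log2 expression per probe set, made by the authors with RMA, per the submitters' processing notes (version not given). RMA subtracts background, quantile-normalises and summarises probes, so small changes near background and near saturation are compressed. Labels state whole-transcript cDNA from 100 ng of RNA. Of 35556 probe sets, 21218 had 1 symbol, 1881 several and 12457 none, and the 14 member probe sets with several symbols were left out. Members and gene lists were chosen with earlier results of these data known. Named were all hosts, up to 8 called small RNAs per direction and comparison with the largest changes and no overlap of groups, small RNAs inside a host member, Snord22, Snord118, and up to 4 genes of each other list with the smallest adjusted p. Snord82, Snord57, Snora5c, Snord8, their host genes, Rpl17, Rpl23, Eef2, Nop10, Pih1d1, Smg6 and Upf1 were named after their values were seen.

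A model with 1 mean per group over all 20 arrays (15 residual degrees of freedom) was fitted with limma 3.58.1 in R 4.3.3, with empirical Bayes moderation and Benjamini-Hochberg adjustment over 18820 genes, and calls are at adjusted p under 0.05. Errors are SE of the fitted change. Host genes were assigned by containment in the RefSeq annotation, without strand. Where more than 1 gene held a small RNA, the host was taken from known pairs, Gas5 for Snord47 and Snhg6 for Snord87. Snord8 was left without a host. Fits were tested on simulated data. Alternatives covered normalisation, filters, probe set choice, positions, the dose in the description and left-out arrays. No 2 arrays were identical. Deviations from the group means correlated over 0.1 for 0 to 2 of 4 same-numbered array pairs in each pair of groups, with 0.41 the highest. Arrays of different number were not compared, so this cannot exclude that replicate numbers pair samples. Precision is limited by 4 arrays per group.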

Additional observations from a re-analysis of the deposited data

Results flagged for a closer look

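The 29 members named by the rule above were searched for 1 array far from the other 3. Among their 145 groups of 4 arrays 12 were found, where chance gives about 7.2 (1 in 20). Other members that the text mentions, such as Snord82 and Snord57, were not searched. In E46 controls replicate 1, a low-quartile array, was far below the others for Snord16a (8.25, others 8.61 to 8.65), Snord37 (4.52, others 5.53 to 5.70) and Snord95 (7.09, others 7.68 to 7.76). In A2/12 cells with serotonin 100, replicate 3 was far above for Gas5 (9.88, others 9.59 to 9.63), Snord33 (8.28, others 7.47 to 7.61) and Snord55 (8.96, others 8.59 to 8.62).

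The other 6 lay on different arrays. In E46 cells with serotonin 100, Snhg11 read 4.07 on replicate 2 (others 4.31 to 4.35), Snhg5 read 9.76 on replicate 1 (others 9.98 to 10.03) and Snora16a read 10.7 on replicate 3 (others 9.92 to 9.96). Snord38a read 4.07 on replicate 1 of E46 serotonin 1 (others 4.47 to 4.55). Snord95 read 8.91 on replicate 1 of A2/12 serotonin 100 (others 9.09 to 9.13), and Snord96a read 6.77 on replicate 3 of A2/12 controls (others 6.61 to 6.63).

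Responses to serotonin 100 differed between the lines, E46 minus A2/12, for Snhg16 (-0.85), for Snord14e (-0.46) and for Gas5 probe set 10351026 (-0.58), each by limma's test of the difference itself.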

How the results depend on the processing

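Over 93 named results and 3504 alternative values, 139 lost a call and 39 gained one in the same direction. Another 14 turned round a result that was called. The other 3312 were counted as unchanged. They include changes of sign in results that were not called, such as Snord47 for 100 against 1, which ranged from -1.16 to 0.77. Of the lost calls, 66 arose within single positions, where few arrays remain. At position 9, far fewer of all genes were called as well with serotonin 100 and between the lines. Taking the E46 dose from the description exchanges the 2 serotonin groups by construction. The counts called then became 1 small RNA (29 as reported) and 0 hosts (7) for serotonin 100, 29 small RNAs (1) and 7 hosts (0) for serotonin 1, and 16 small RNAs (1) and 2 hosts (1) for the difference between lines. The comparison of 100 with 1 turned round for its 17 small RNAs and 2 hosts. The called changes that reversed were Snhg16 at -0.028 and Snord37 at -0.60 for serotonin 100 against control. For 100 against 1 they were Snhg16 at -2.17, Snhg5 at -1.47, Snora75 at -1.27, Snord118 at 0.99, Snord16a at -1.03, Snord22 at -0.40, Snord37 at -1.68, Snord38a at -0.79, Snord42b at -0.99, Snord58b at -1.24, Snord95 at -1.07 and Snord96a at -0.73. Within position 9, calls for small RNAs and hosts were 1 and 2 (serotonin 100, E46), 6 and 2 (A2/12) and 1 and 0 (line), and 4 small RNAs were called for 100 against 1. Within position 5, 11 small RNAs were called for 100 against 1 and 1 host for the line. With serotonin 1 the call of Snord22 was lost (0 small RNAs) within positions 5, 7 and 9, with the line fitted alone and without the 4 low-quartile arrays. Without those arrays 6 hosts were called for 100 against 1, beside 6862 of all 18820 genes. For the difference between lines, 2 small RNAs were called within position 7, after quantile normalization, without those 4 arrays and with the upper quartile as covariate, and 0 within position 9. The 2 within position 7 do not include Snord14e (-0.61, adjusted p = 0.11). No host was called for it within positions 5, 7 and 9 (0 each), and 2 were without the 2 control arrays that stood apart. Without those 2, 9 small RNAs were called between lines, and 1 host was with all probe sets in the adjustment. The cause was not tested for any of these. Counts given here without a share of all genes are not read as particular to the members.

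Leaving out 1 array at a time gave 23 to 32 small RNAs and 5 to 7 hosts for serotonin 100 in E46 cells, 29 to 36 and 6 to 6 in A2/12 cells, 1 to 14 and 0 to 1 for serotonin 1, 13 to 23 and 2 to 4 for 100 against 1, 1 to 1 and 1 to 1 for the difference, and 11 to 18 and 1 to 2 between lines. The highest counts for serotonin 1 and for small RNAs in 100 against 1 came without E46 serotonin 1 replicate 2. Counts in this paragraph stand without the share of all genes in the same fit, so they are not read as particular to the members. With the replicate number as a block, which the labels do not state to be a pairing, small RNAs and hosts called were 34 and 7 (E46), 38 and 6 (A2/12), 1 and 0 (serotonin 1), 20 and 2 (100 against 1), 2 and 1 (difference) and 18 and 2 (line).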
